A study of Mus musculus with 40 samples.

Results

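The genes described here are 10 genes by which pericytes and vascular smooth muscle cells are commonly recognised: *Pdgfrb*, *Cspg4*, *Rgs5*, *Kcnj8* and *Abcc9* for pericytes, *Acta2*, *Tagln*, *Myh11* and *Des* for smooth muscle, and the receptor gene *Notch3*. They were taken by name, and all 10 were found among the 54307 genes of the deposited table. RNA had been sequenced from 20 choroids and 20 retinas of laser-treated mice, which gave 40 libraries. The 4 groups, named control – PLX, Tgfbr2ΔEC – PLX, control + PLX and Tgfbr2ΔEC + PLX, held 5 choroids and 5 retinas each. The library names number them from 1 to 20 in each tissue, and a number is called a mouse here, although the sources used do not state that equal numbers are one animal. All mice were on a C57BL/6J background, carried homozygous floxed *Tgfbr2* (the gene of TGFβ receptor II), received tamoxifen as eye drops from an age of 6 to 7 weeks, and were lasered with 6 burns per eye, 3 days before the tissue was taken. Tgfbr2ΔEC mice also carried *Cdh5*-CreERT2, a tamoxifen-inducible recombinase driven by an endothelial promoter, and the controls were littermates without it. PLX is the diet PLX5622, an inhibitor of the CSF1 receptor that depletes mononuclear phagocytes (MP), given from the first tamoxifen treatment until the end. Only the central part of the choroid, which holds the lesions, had been sequenced.

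Pericytes sit on capillaries and share the basement membrane of the endothelium, while smooth muscle cells wrap arterioles and larger vessels, and together they are called mural cells. Endothelial PDGF-B recruits them through the receptor that *Pdgfrb* encodes, and NOTCH3 on the mural cell, engaged by ligands on the endothelium, supports their maturation. Contraction rests on smooth muscle actin and myosin, which *Acta2* and *Myh11* encode, and the ATP-sensitive potassium channel built from the products of *Kcnj8* and *Abcc9* hyperpolarises the cell. None of these genes is exclusive to mural cells: *Pdgfrb* is also expressed by fibroblasts, *Cspg4* by glial and pigment cell precursors and *Des* by skeletal muscle.

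The values are normalized counts, that is, the authors' estimated reads per gene divided by a size factor for each library. They summed to 24718469 to 25956180 per choroid and 22256892 to 24507335 per retina. The floxed gene did not separate the genotypes in this bulk RNA (*Tgfbr2* in choroid, log2 difference over both diets -0.02, adjusted p = 0.981 by limma). These values count the gene over all cells of the tissue, so they cannot tell whether endothelial cells lost it. The paper reports the deletion in choroidal and retinal endothelium, and by PCR and qPCR of choroidal tissue. Some choroids held more RNA of the neural retina than others: the 10 neural retina markers summed to 46657 to 135557 normalized counts in Tgfbr2ΔEC – PLX choroids and to 130987 in mouse 15 of control + PLX, against 2478 to 26862 in the other choroids. Skeletal muscle RNA was also present in choroid, where the 11 markers summed to 22350.2 to 191553 normalized counts, and nearly absent from retina. In bulk RNA, fewer cells of a type and less RNA per cell cannot be told apart.

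In the annotation used here (GRCm39), *Rgs5* (ENSMUSG00000026678) lies at chr1:169483036-169524887, *Myh11* (ENSMUSG00000018830) at chr16:14012399-14109236, *Tagln* (ENSMUSG00000032085) at chr9:45840909-45847404 and *Des* (ENSMUSG00000026208) at chr1:75320511-75345223. To show the DNA just upstream of genes on which the results turn, the 250 bases before the start of the canonical transcript (GENCODE release 39) are given for *Rgs5* and *Myh11*, which rose with PLX in choroid, and for *Tagln*, which was not called there. They are read 5′ to 3′ on the strand of the gene, in GRCm39. The capitals in the *Tagln* sequence mark a CArG box, the element bound by serum response factor.
Rgs5, chr1:169482786-169483035, plus strand: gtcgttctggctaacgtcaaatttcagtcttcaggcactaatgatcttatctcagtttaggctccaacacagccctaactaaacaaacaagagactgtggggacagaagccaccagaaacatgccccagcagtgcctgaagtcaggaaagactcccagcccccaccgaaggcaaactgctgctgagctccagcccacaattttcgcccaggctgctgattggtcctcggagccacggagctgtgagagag
Myh11, chr16:14109237-14109486, minus strand: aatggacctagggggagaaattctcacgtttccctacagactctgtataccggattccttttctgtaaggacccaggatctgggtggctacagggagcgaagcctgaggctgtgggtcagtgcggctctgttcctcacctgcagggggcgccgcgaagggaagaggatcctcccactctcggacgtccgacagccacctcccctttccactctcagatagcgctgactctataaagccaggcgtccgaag
Tagln, chr9:45847405-45847654, minus strand: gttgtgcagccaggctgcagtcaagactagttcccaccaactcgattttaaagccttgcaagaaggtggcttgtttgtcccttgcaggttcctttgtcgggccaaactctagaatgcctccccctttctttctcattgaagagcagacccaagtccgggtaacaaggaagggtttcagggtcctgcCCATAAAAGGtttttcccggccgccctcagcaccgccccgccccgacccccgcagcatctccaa

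The CArG box was searched as exact matches to CCWWWWWWGG, where W is A or T. Boxes that depart from this pattern or lie outside the windows were not counted. The match in *Tagln* began 64 bases before the transcript start, and it was the single exact match among the windows of the 10 genes. Of 21757 protein-coding genes, 1.4% had a match in a window of this length, and among 14 other smooth muscle contractile genes there were 0 matches. The core of the site bound by RBPJ, the DNA-binding partner of the Notch receptors (TGGGAA on either strand), was found for 2 of the 10 genes, 123 bases before the start of *Abcc9* and 220 bases before that of *Tagln*, against 22.7% of all windows. The 2 motifs did not overlap in *Tagln*. *Kcnj8* and *Abcc9*, the pore and the regulatory subunit of one channel, are neighbours on chromosome 6 and are read from the same strand (GRCm39, chr6:142510563-142517830 and chr6:142533588-142648571).

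All 10 genes were higher in choroid than in retina. In limma on log2(normalized count + 1), with Benjamini-Hochberg adjustment over 24317 genes, each of the 10 was called higher in choroid, where 40.8% of all tested genes were called higher and 41.1% lower. The median log2 difference of the 10 genes was 4.59, and that of all genes was -0.01. The genes listed for smooth muscle differed most, although *Des* is also expressed by skeletal muscle and *Myh11* was close to the pericyte gene *Cspg4*. *Des*, which encodes the intermediate filament desmin, was 263-fold higher (log2 difference 8.04, standard error 0.17, adjusted p = 1.24e-32). *Acta2*, smooth muscle actin, was 79.8-fold higher (log2 difference 6.32, 95% interval 6.08 to 6.56). *Tagln*, which encodes the actin-binding protein transgelin, differed by 5.54 (5.27 to 5.80) on the log2 scale. *Myh11*, smooth muscle myosin heavy chain, differed by 4.74 (4.53 to 4.95). Of the pericyte genes, *Cspg4*, the proteoglycan NG2, differed by 4.68 and *Pdgfrb* by 4.49, while *Abcc9* differed by 3.98. The smallest differences were those of *Rgs5*, a regulator of G protein signalling, at 3.51 (3.39 to 3.64), and *Kcnj8* at 3.15 (2.92 to 3.38). *Notch3* differed by 4.34. For each of the 10 genes, the lowest choroid was above the highest retina. Both tissues hold other cells: the 7 fibroblast markers summed to 419525 to 684167 normalized counts in choroid and to 402 to 1247 in retina. The 11 skeletal muscle markers summed to 22350 to 191553 in choroid and to 105 to 1238 in retina. *Des* varied with the mean log2 value of these muscle markers over the 20 choroids (r = 0.917 after centring on the group means). The part of fibroblasts and skeletal muscle in the differences was not tested.

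Divided by transcript length, the levels also stood in a different order in the 2 tissues. In choroid, *Rgs5* had a median of 4584 (3286 to 6661) normalized counts per kb over 20 mice and *Acta2* one of 4377 (2859 to 6057). *Rgs5* was above *Acta2* in 15 of 20 choroids, so these neighbours overlapped. *Tagln* followed at 2498 (1582 to 3386), *Des* at 1949 (902 to 3316) and *Pdgfrb* at 1739 (1337 to 1975) normalized counts per kb. *Acta2* was above *Tagln* in each choroid, while *Tagln*, *Des* and *Pdgfrb* overlapped from one to the next. *Myh11* was at 540.5 (174 to 709), *Notch3* at 435 (225 to 602) and *Abcc9* at 419.9 (316 to 534) per kb, again with overlap between neighbours. *Cspg4* and *Kcnj8* were lowest, at 189 (152 to 224) and 156 (134 to 223) per kb.

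In retina, *Rgs5* stood alone at the top with 401 (325 to 547) normalized counts per kb, above *Pdgfrb* at 76.0 (63.7 to 95.3) in each of the 20 mice. *Tagln* and *Acta2* had medians of 47.8 (29.5 to 117) and 56.4 (24.4 to 82.9) per kb, and each was the higher of the pair in 10 of 20 retinas. *Abcc9* had a median of 27.6 (12.9 to 42.4), *Notch3* one of 18.5 (13.5 to 43.5), *Kcnj8* one of 18.7 (8.49 to 31.4) and *Myh11* one of 17.8 (13.1 to 23.7) per kb, with overlap from one to the next. *Des*, which in choroid was at the level of *Tagln* and *Pdgfrb*, was at the bottom of the order in retina with *Cspg4*, at 7.62 (2.97 to 14.3) and 7.03 (4.63 to 11.2) per kb. *Rgs5* made up 48.3% to 64.5% of the summed level per kb of the 10 genes in retina and 20.8% to 36.7% in choroid. *Acta2* made up 4.45% to 12.4% in retina and 19.8% to 35.1% in choroid. The ratio of *Acta2* to *Rgs5* normalized counts was higher in the choroid than in the retina of the same number in 20 of 20 cases, with medians of 0.579 in choroid and 0.0874 in retina.

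**Figure D1:**
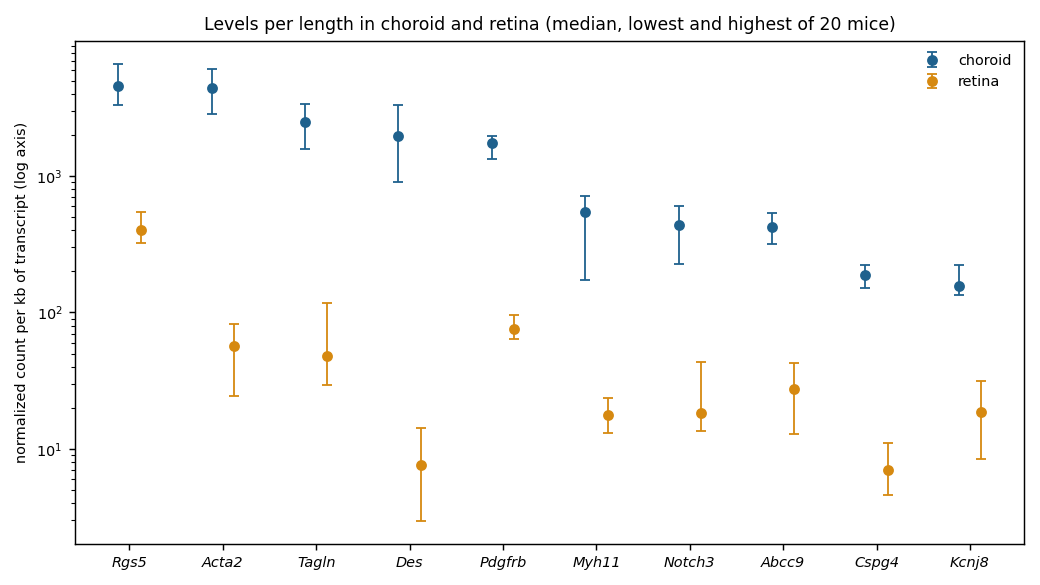
Normalized counts per kb of canonical transcript (log axis) of the 10 genes, in order of their mean in choroid, with the median as a point and the lowest and highest of 20 mice as bars for choroid and retina. Each gene is higher in choroid, and in retina *Rgs5* lies apart from the other genes, between 325 and 547 per kb.

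Of 18 other pericyte genes, 12 were called higher in choroid and 6 higher in retina, beside the 40.8% and 41.1% of all genes given above. *Enpep*, an aminopeptidase, *Foxc1*, a transcription factor, and *Mcam*, an adhesion molecule, were higher in choroid, with log2 differences of 4.18, 5.70 and 4.11. *Gucy1b1*, a subunit of soluble guanylate cyclase, *Vtn*, which encodes vitronectin, and *Rgs4* were higher in retina, with log2 differences of -1.58, -4.28 and -1.62. Of 14 other smooth muscle contractile genes, 13 were called higher in choroid and 0 higher in retina. Those with the lowest p were *Cald1* (log2 difference 4.403), *Myl9* (4.47) and *Tpm2* (8.38). The 5 genes of PDGF ligands and *Pdgfra* were all called higher in choroid. Of 13 Notch ligands, receptors and targets, 10 were called higher in choroid, among them the target *Heyl* (5.47), and *Hey2* (-1.03) and *Jag1* (-0.51) were called higher in retina. The paralogs of the channel subunits were not higher in choroid: *Abcc8*, the sulfonylurea receptor of neurons and islet cells, was higher in retina (log2 difference -3.87), and *Kcnj11* had a log2 difference of -0.49 (adjusted p = 0.0504). Of 7 receptors for contractile agonists, 5 were called higher in choroid and 2 higher in retina, and all 4 genes of the serum response factor and myocardin family and all 5 actin paralogs were called higher in choroid. In each of these comparisons the test was limma with adjustment over all genes.

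The diet with PLX raised *Rgs5* and *Myh11* in choroid. Over both genotypes, 2 of the 10 genes were called higher and 0 lower by limma with adjustment over 23619 genes, where 2.07% of all tested genes were called higher and 5.06% lower. The median log2 difference of the 10 genes was 0.19, with 9 of 10 above 0, while that of all genes was 0.00 with 50.1% above 0. *Rgs5* read 13609.6, 17006, 14686, 17889 and 13573 normalized counts in the control – PLX mice. It read 18015, 19988, 18074, 18712 and 15829.8 in Tgfbr2ΔEC – PLX mice. With PLX it read 23981, 16460.0, 19150.3, 23979 and 23206 in controls and 24037, 21219.9, 27512, 24213 and 24431 in Tgfbr2ΔEC mice. Of the 10 choroids with PLX, 8 were above the highest choroid without PLX, and the exceptions were mice 12 and 13 of control + PLX. The group means were 15353 ± 1988, 18124 ± 1508, 21355 ± 3392 and 24282 ± 2230.2 (SD, n = 5 each). The log2 difference with PLX was 0.45 (standard error 0.079, adjusted p = 0.00067) over both genotypes, a 1.362-fold rise, and the exact two-sided permutation test over all relabellings of diet within genotype gave p = 0.000126.

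*Myh11* read 1506, 2594, 2785, 3639 and 1139 normalized counts in control – PLX choroids and 2619, 3516, 2727, 2094 and 2918 in Tgfbr2ΔEC – PLX choroids. With PLX it read 4545, 4003, 4642, 4511 and 3563 in controls and 3765, 3377, 4321, 4147 and 3922 in Tgfbr2ΔEC mice. Mice 1 and 5 of control – PLX were the lowest of all 20, and mice 4 and 7, without PLX, overlapped with the choroids with PLX. Again 8 of the 10 choroids with PLX were above the highest choroid without PLX. The group means were 2333 ± 1011, 2775 ± 515, 4253 ± 459 and 3906 ± 364 (SD, n = 5 each). The log2 difference was 0.74 (standard error 0.16, adjusted p = 0.00362) over both genotypes, a 1.68-fold rise (exact permutation test, p = 0.000126). Leaving out each mouse in turn kept both genes called, with log2 differences of 0.42 to 0.49 for *Rgs5* and 0.63 to 0.84 for *Myh11*. With the neural retina score (the mean log2 value of the 10 markers) as a covariate, the log2 differences were 0.46 for *Rgs5* and 0.63 for *Myh11*, and both remained called over both genotypes.

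In controls, PLX was called for *Myh11* (log2 difference 0.98, standard error 0.22, adjusted p = 0.011) and *Rgs5* (0.47, standard error 0.11, adjusted p = 0.0167), where 0.601% of all genes were called higher. In Tgfbr2ΔEC mice, *Rgs5* was called (log2 difference 0.42, standard error 0.11, adjusted p = 0.0356), where 0.559% of all genes were called higher, and *Myh11* was not (0.51, standard error 0.22, adjusted p = 0.258). Leaving out mouse 1, 5, 11, 14 or 15 ended the call of *Rgs5* in controls, and leaving out mouse 6, 8, 9, 10, 16, 18, 19 or 20 ended it in Tgfbr2ΔEC mice (adjusted p up to 0.0595 and 0.0958). Adding the neural retina score to the fit ended the call of *Rgs5* in Tgfbr2ΔEC mice (adjusted p = 0.129 by limma), and in a fit of only the 10 control choroids both calls were lost (adjusted p = 0.108 for *Rgs5* and 0.0944 for *Myh11*). The effect of PLX was not shown to differ between the genotypes: the interaction had a log2 difference of -0.05 (-0.38 to 0.28) for *Rgs5* and -0.47 (-1.13 to 0.18) for *Myh11*. Limma called 0 of the 10 genes and 0 of all 23619 genes tested. An unadjusted p under 0.05 was found for 0 of the 10 and for 1552 of all genes.

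**Figure D2:**
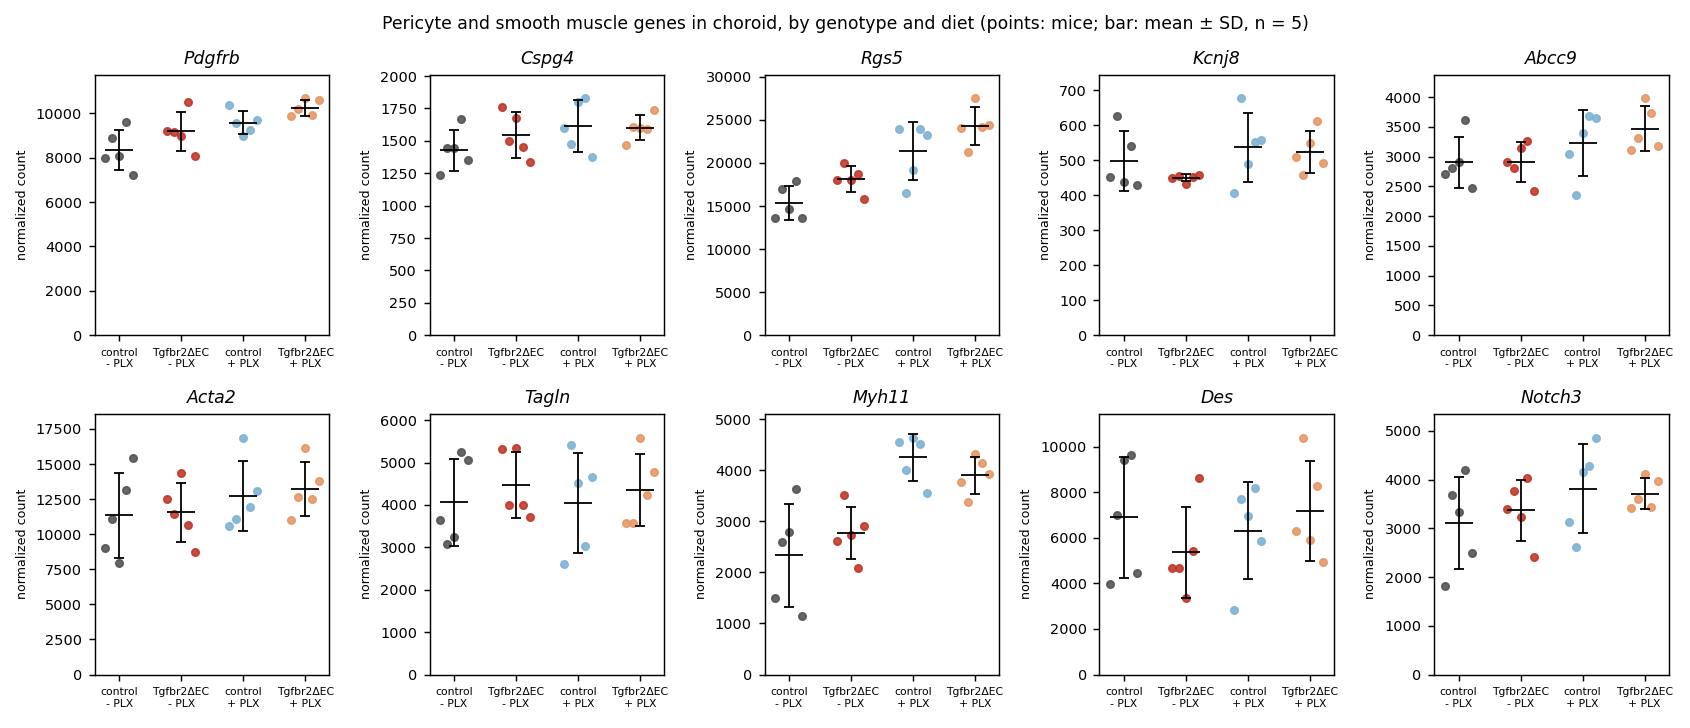
Normalized counts (linear axes from 0) of the 10 genes in choroid, with each mouse as a point and the mean ± SD of 5 mice as a bar for the 4 groups. *Rgs5* and *Myh11* are higher with PLX, with 8 of 10 mice above every mouse without PLX, while *Tagln* and *Des* overlap throughout.

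*Pdgfrb* came close to the threshold with PLX. It read 7988, 8893, 8089, 9596 and 7229 normalized counts in control – PLX and 9222, 9165, 8969, 10493 and 8057 in Tgfbr2ΔEC – PLX choroids. With PLX it read 10398, 9544, 8989, 9261 and 9705 in controls and 9887, 10199.6, 10680.2, 9936 and 10588 in Tgfbr2ΔEC mice. All 10 choroids with PLX were above the median of those without, but 2 were above the highest of them. The log2 difference was 0.18 (standard error 0.056, adjusted p = 0.0548), and the exact permutation test of this gene alone gave p = 0.00173. *Pdgfrb* was also the least variable of the 10 genes in choroid, with a coefficient of variation within groups of 7.37% on average, against 34.9% for *Des*. The other pericyte genes had log2 differences of 0.20 for *Abcc9* (0.02 to 0.38), 0.16 for *Kcnj8* (-0.03 to 0.35) and 0.12 for *Cspg4* (-0.03 to 0.26), none of them called. *Abcc9* had group means of 2902 ± 430.1 and 2911 ± 329 normalized counts without PLX and of 3227 ± 550.4 and 3465 ± 377 with PLX, in controls and Tgfbr2ΔEC mice (SD, n = 5). It was called when mouse 12 was left out (log2 difference 0.25, adjusted p = 0.0397 by limma).

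The genes of pericytes were also set against each other within each library. The *Rgs5* to *Pdgfrb* ratio of normalized counts had medians of 1.86 (lowest 1.70, highest 1.91) in control – PLX choroids and 1.97 (1.78 to 2.18) in those of Tgfbr2ΔEC – PLX mice. With PLX it had medians of 2.31 (1.73 to 2.59) in controls and 2.43 (2.08 to 2.58) in Tgfbr2ΔEC mice. The *Rgs5* to *Cspg4* ratio had medians of 10.7 and 11.9 without PLX and of 13.1 and 15.2 with PLX, in controls and Tgfbr2ΔEC mice respectively. The *Kcnj8* to *Abcc9* ratio, for the 2 subunits of one channel, had medians of 0.168 and 0.155 without PLX and of 0.1501 and 0.155 with PLX. Ratios were chosen after the values had been seen and were not tested.

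Of the 4 smooth muscle genes, *Myh11* was the one called with PLX in choroid. *Acta2* had group means of 11333 ± 3044 and 11545 ± 2092 normalized counts without PLX and of 12712 ± 2519.7 and 13225 ± 1905 with PLX in controls and Tgfbr2ΔEC mice (SD, n = 5), a log2 difference of 0.20 (-0.06 to 0.45). *Tagln* had a log2 difference of -0.03 (-0.32 to 0.26) and *Des* one of 0.16 (-0.30 to 0.61). The *Myh11* to *Tagln* ratio had medians of 0.693 and 0.522 without PLX and of 1.03 and 0.943 with PLX, and the *Myh11* to *Acta2* ratio medians of 0.234 and 0.210 without and 0.361 and 0.284 with PLX. *Notch3* had a log2 difference of 0.24 (-0.05 to 0.53) over both genotypes, 0.32 in controls and 0.16 in Tgfbr2ΔEC mice. It read 1821, 3678, 3343, 4193 and 2492 normalized counts in the control – PLX choroids and 3126, 2621, 4163, 4278 and 4862 in the control + PLX choroids.

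Of 14 other smooth muscle contractile genes, 5 were called higher with PLX over both genotypes and 0 lower, where 2.07% of all genes were called higher and 5.06% lower, with a median log2 difference of 0.30 and 13 of 14 above 0. Within genotypes, limma called 1 of the 14 in control choroids and 0 in Tgfbr2ΔEC choroids, with 8 and 5 at an unadjusted p under 0.05 and medians of 0.35 and 0.31. They were led by *Itga8*, which encodes an integrin subunit (log2 difference 0.59, adjusted p = 0.0112), *Kcnmb1*, a subunit of the calcium-activated potassium channel (0.59, adjusted p = 0.0189), and *Cald1*, which encodes caldesmon (0.24, adjusted p = 0.0378), all by limma. Of 18 other pericyte genes, 1 was called higher (*Rgs4*, a relative of *Rgs5*, log2 difference 0.41, adjusted p = 0.0262) and 0 lower, with 15 of 18 above 0 and a median of 0.18. Of 7 receptors for contractile agonists, 1 was called higher, the endothelin receptor gene *Ednra* (0.29, adjusted p = 0.00236). Of 4 genes of serum response factor and its myocardin family partners, which switch on contractile genes, limma called 0, with 1 at an unadjusted p under 0.05, and *Myocd* itself had a log2 difference of 0.57 with a standard error of 0.36. Of the 5 actin paralogs, the cytoplasmic actin gene *Actb* was called lower (-0.66, adjusted p = 4.02e-06), and 0 were called higher.

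In the signalling lists, the PDGF ligands and *Pdgfra* had 0 of 5 genes called with PLX by limma and 3 at an unadjusted p under 0.05. *Pdgfb*, the endothelial ligand of the receptor on pericytes, had a log2 difference of -0.0014 (standard error 0.082). Of 13 Notch ligands, receptors and targets, the target *Hes1* was called higher (0.29, adjusted p = 0.0321 by limma) and *Rbpj* lower (-0.42, adjusted p = 0.0118), with 11 of 13 above 0. The 2 paralogs of the channel subunits, *Kcnj11* and *Abcc8*, had log2 differences of -0.05 and 0.04, with standard errors of 0.41 and 0.53.

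Markers of other cells moved with the diet in the same choroids. Of the cells that the diet depletes, 10 of 11 markers of mononuclear phagocytes were called lower, and their sum ranged from 35243 to 42557 normalized counts without PLX and from 9849 to 12807 with PLX. Of 9 endothelial markers, 5 were called higher, 9 were above 0, and the list summed to 25583 to 30824 normalized counts without PLX and to 27992 to 36648 with PLX. The endothelial score, the mean log2 value of the list, was 0.24 higher with PLX (exact permutation test, p = 3.15e-05, the smallest it can give). For comparison, *Rgs5* was 0.45, *Pdgfrb* 0.18 and *Myh11* 0.74 higher on the log2 scale. The part of endothelial RNA in these differences was not tested. Of 7 fibroblast markers, 1 was called higher, and of 11 skeletal muscle markers, limma called 0, with 0 at an unadjusted p under 0.05. Of 6 markers of the retinal pigment epithelium and 5 of melanocytes, limma called 0 (2 and 1 at an unadjusted p under 0.05), with medians of 0.24 and 0.14. Neural retina markers were lower with PLX without being called: 0 of 10 were above 0, with a median log2 difference of -1.10, limma called 0 and 4 had an unadjusted p under 0.05. Their sum ranged from 2827 to 135557 normalized counts without PLX and from 2478 to 130987 with PLX, and the score differed by -1.12 (exact permutation test, p = 0.104). The median was -2.19 in Tgfbr2ΔEC choroids, with 10 of 10 at an unadjusted p under 0.05, and 0.02 in control choroids, with 0 of 10. After the score of these markers was added to the fit, the log2 differences over both genotypes were 0.46 for *Rgs5* and 0.63 for *Myh11*, and both remained called. With the skeletal muscle score as a covariate, an alternative added after the data had been seen, they were 0.44 and 0.76, and both remained called.

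In retina, 0 of the 10 genes were called with PLX over both genotypes by limma, where 1.08% of all tested genes were called lower. An unadjusted p under 0.05 was found for 0 of the 10 and for 1459 of all 23243 genes tested. The median log2 difference of the 10 was -0.16, with 1 of 10 above 0, while that of all genes was 0.00 with 50.8% above 0. *Rgs5* read 1525, 1905, 1768, 1567 and 2212 normalized counts in control – PLX and 2258, 1535, 2045, 1657 and 1366 in Tgfbr2ΔEC – PLX retinas. With PLX it read 1341, 1548, 1655, 1722 and 1721 in controls and 1544, 1873, 1638, 1572 and 1751 in Tgfbr2ΔEC mice. The groups overlapped, with a log2 difference of -0.11 (-0.30 to 0.08). *Pdgfrb* had group means of 425 ± 39.1 and 451 ± 50.9 without PLX and of 388 ± 48.3 and 394 ± 29.6 with PLX (SD, n = 5), a log2 difference of -0.16 (-0.33 to 0.00), and the exact permutation test of this gene alone gave p = 0.0235. *Myh11* had 0.10 (-0.18 to 0.39) and *Des*, at 9 to 45 normalized counts per retina, -0.39 (-0.92 to 0.15). The remaining genes had log2 differences between -0.23 (*Acta2*, -0.65 to 0.19) and -0.07 (*Abcc9*, -0.41 to 0.27). Of the 18 other pericyte and 14 other contractile genes, limma called 0 in retina (1 and 0 at an unadjusted p under 0.05), while 11 of 11 markers of mononuclear phagocytes were called lower. The endothelial score was 0.19 lower with PLX in these retinas (exact permutation test, p = 0.0365), with 2 of 9 markers above 0. Of the 6 fibroblast markers tested, 2 were above 0, with a median log2 difference of -0.73 and a score difference of -0.44 (exact permutation test, p = 0.134). Of 5 melanocyte markers 1 was above 0 (median -0.57, score difference -0.50, p = 0.204 by the exact test), and of 6 markers of the retinal pigment epithelium 5 were above 0 (median 0.52, score difference 0.45, p = 0.101). Limma called 0 in each of these 4 lists, with 2 endothelial, 1 fibroblast, 0 melanocyte and 2 pigment epithelium markers at an unadjusted p under 0.05. The part of these cells in the difference of *Pdgfrb* was not tested.

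The difference between the tissues in the response to PLX was tested directly. For the PLX effect in choroid minus that in retina, 2 of the 10 genes were called higher, where 0.543% of all tested genes were called higher. The median of the 10 was 0.39, with 10 of 10 above 0, while that of all genes was 0.00 with 50.5% above 0. *Rgs5* differed by 0.56 (standard error 0.12, adjusted p = 0.00691) and *Pdgfrb* by 0.35 (standard error 0.089, adjusted p = 0.0333) on the log2 scale. *Myh11* differed by 0.64 (standard error 0.21, adjusted p = 0.147) and was not called. In retina it read 135, 88.4, 115, 85.5 and 105 in control – PLX and 119, 147, 95.7, 153 and 120.2 in control + PLX mice. Its log2 difference with PLX in retina was 0.26 in controls and -0.06 in Tgfbr2ΔEC mice. The call of *Pdgfrb* ended when mouse 1, 5, 6, 12, 13, 14, 16, 18, 19 or 20 was left out (adjusted p up to 0.105), while *Rgs5* remained called in all 20 such fits. Markers of other cells also differed between the tissues in this contrast. Of 9 endothelial markers, 2 were called higher and 9 were above 0, with a median of 0.44, and 8 of 11 markers of mononuclear phagocytes were called higher (median 3.01). Of 7 fibroblast markers 6 were above 0 (median 0.77), of 5 melanocyte markers 4 (0.71), of 10 neural retina markers 0 (-1.17) and of 6 markers of the retinal pigment epithelium 0 (-0.31). Limma called 0 in these last 4 lists, with 2, 1, 6 and 0 at an unadjusted p under 0.05. The part of these cells in the differences of *Rgs5* and *Pdgfrb* was not tested.

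**Figure D3:**
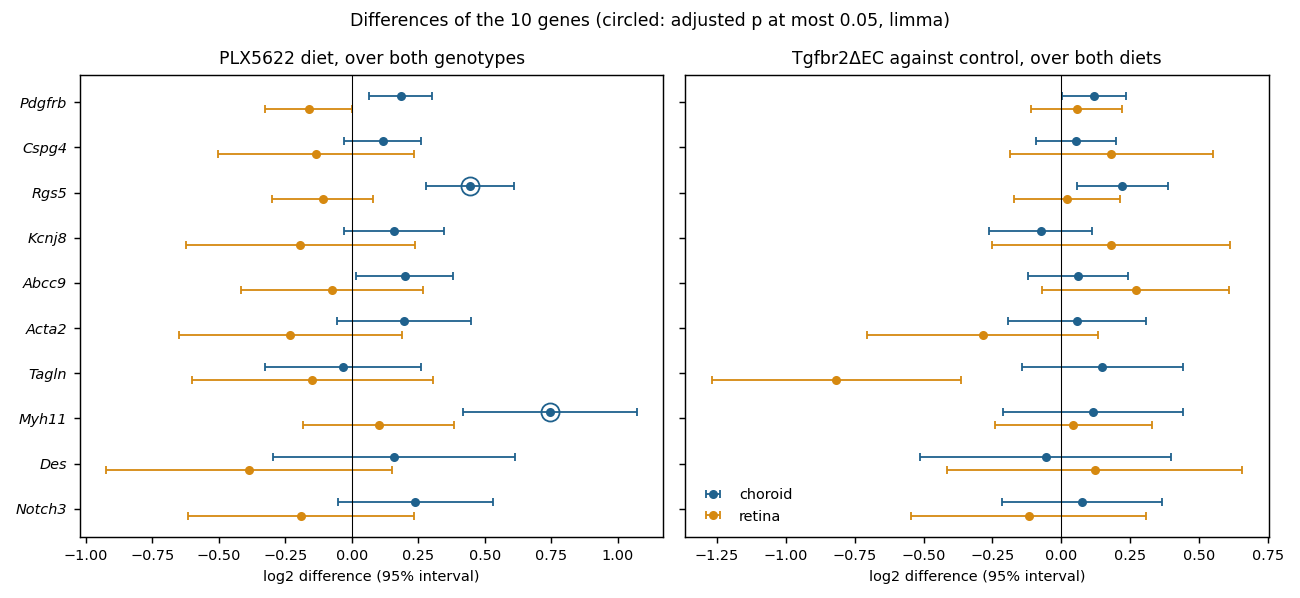
Log2 differences with 95% intervals (limma) of the 10 genes with PLX over both genotypes (left) and in Tgfbr2ΔEC against control mice over both diets (right), for choroid and retina, with a circle around those at an adjusted p at or under 0.05. *Rgs5* and *Myh11* are circled for PLX in choroid, and none is circled for genotype, where *Tagln* in retina has the interval farthest from 0.

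Between the genotypes, none of the 10 genes was called. In choroid over both diets, 0 of 10 were called by limma, where 0.00847% of all tested genes were called higher. Of all 23619 genes tested, 1558 had an unadjusted p under 0.05, as did 2 of the 10. These were *Rgs5*, with a log2 difference of 0.22 (standard error 0.079, adjusted p = 0.752), and *Pdgfrb*, with 0.12 (standard error 0.056, adjusted p = 0.755). For *Rgs5*, 9 of the 10 Tgfbr2ΔEC choroids were above the median of the controls over both diets, and the exact permutation test of this gene alone gave p = 0.0114. The effect of genotype on *Rgs5* was 0.24 (0.01 to 0.48) without PLX and 0.20 (-0.04 to 0.43) with PLX. The 8 remaining genes had log2 differences between -0.08 (*Kcnj8*) and 0.15 (*Tagln*). The neural retina score was 1.32 higher in Tgfbr2ΔEC choroids over both diets (exact permutation test, p = 0.0598), and with it as a covariate the log2 differences were 0.20 for *Rgs5* and 0.11 for *Pdgfrb*. The endothelial score was 0.07 higher (exact permutation test, p = 0.124). Without PLX alone, where the interval of *Rgs5* was above 0, the endothelial score was 0.09 higher (exact permutation test, p = 0.0159) and the neural retina score 2.49 higher (p = 0.00794, the smallest it can give with 5 against 5). The part of these cells in the difference was not tested.

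In retina, 0 of the 10 genes were called for genotype over both diets, where 0% of all tested genes were called in either direction. Of all 23243 genes tested, 878 had an unadjusted p under 0.05, as did 1 of the 10. This was *Tagln*. It read 161, 151, 85.0, 116 and 82.9 normalized counts in control – PLX and 60.2, 73.5, 74.9, 144 and 48.7 in Tgfbr2ΔEC – PLX retinas. With PLX it read 148, 158, 83.1, 194 and 64.3 in controls and 73.6, 49.0, 61.4, 54.2 and 56.2 in Tgfbr2ΔEC mice. In Tgfbr2ΔEC retinas 6 of 10 were below the lowest control, and mouse 9, at 144, was the exception on the high side. The log2 difference was -0.82 (standard error 0.22, adjusted p = 0.928), and the exact permutation test of this gene alone gave p = 0.00312. In the same retinas 1 of 9 endothelial markers was above 0, with a median log2 difference of -0.14, while 5 of 6 markers of the retinal pigment epithelium (median 0.61) and 5 of 5 of melanocytes (median 0.53) were above 0. Limma called 0 of these, with 0, 2 and 0 at an unadjusted p under 0.05, and the scores differed by -0.12, 0.44 and 0.46 (exact permutation tests, p = 0.185, 0.105 and 0.236). The part of these cells in the difference of *Tagln* was not tested. *Acta2*, also a gene of smooth muscle, had a log2 difference of -0.29 (-0.71 to 0.13) and *Myh11* one of 0.04 (-0.24 to 0.33). The remaining genes had differences between -0.12 (*Notch3*) and 0.27 (*Abcc9*).

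**Figure D4:**
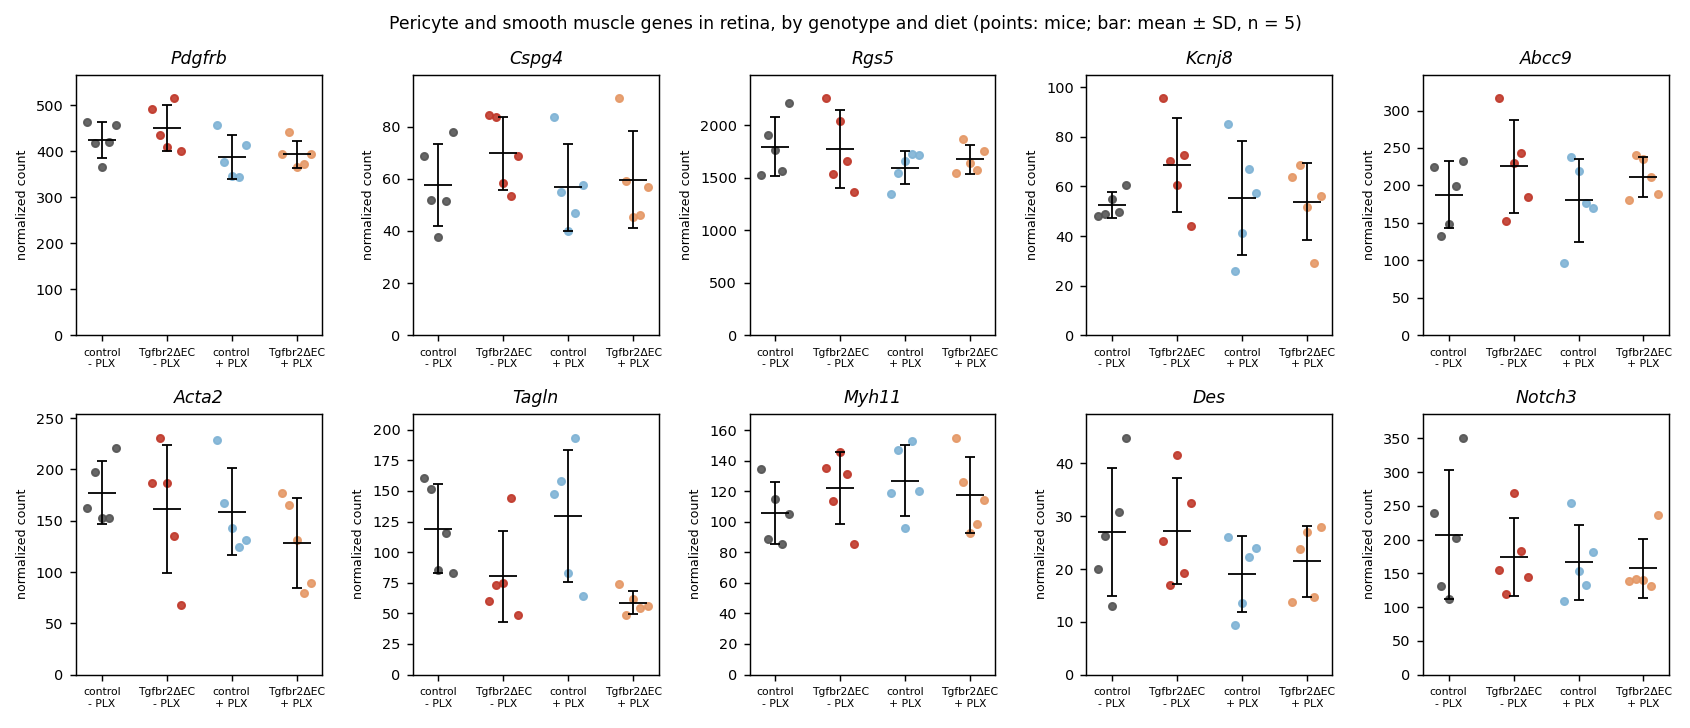
Normalized counts (linear axes from 0) of the 10 genes in retina, with each mouse as a point and the mean ± SD of 5 mice as a bar for the 4 groups. For *Tagln*, 6 of 10 Tgfbr2ΔEC retinas lie below the lowest control, and the groups of the other genes overlap.

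*Des* varied with the skeletal muscle markers of the choroid. Its values were 3959.9, 7000.2, 9391, 9633 and 4465 normalized counts in control – PLX choroids and 2828, 7707, 6947, 8179.5 and 5863 in control + PLX choroids. They were 4692, 4694, 3337, 5430.3 and 8635 in Tgfbr2ΔEC – PLX and 6314, 10394, 5905, 8289 and 4943 in Tgfbr2ΔEC + PLX choroids, so that all groups overlapped. Over 20 choroids, after centring on the group means and resampling within groups, *Des* and the skeletal muscle score correlated with r = 0.917 (permutation p = 2e-05) and rho = 0.893 (p = 3e-05), or r = 0.877 without the 2 choroids farthest from the median score. Adjusted over the 80 relations of the 10 genes with 4 marker scores in 2 tissues, these were 0.0016 and 0.0024. With the same score, *Kcnj8* came next, with r = 0.528 and rho = 0.507 (permutation p = 0.0231 and 0.0342, adjusted 0.278 and 0.318), or r = 0.383 without the 2 farthest choroids. *Acta2* had r = -0.318 and rho = -0.271, *Tagln* r = 0.031 and rho = 0.035, and *Myh11* r = 0.331 and rho = 0.217 (permutation p of r 0.212, 0.909 and 0.184, adjusted 0.798, 0.994 and 0.798). *Rgs5* had r = 0.242 and rho = 0.329 with the endothelial score (permutation p = 0.469 and 0.207, adjusted 0.921 and 0.678), and *Pdgfrb* had r = 0.441 and rho = 0.534 (p = 0.0148 and 0.017, adjusted 0.278 and 0.264). In retina, *Abcc9* and the neural retina score had r = -0.801 and rho = -0.732 (permutation p = 0.00039 and 0.00234, adjusted 0.0156 and 0.0907), or r = -0.800 without the 2 farthest retinas. The skeletal actin gene *Acta1*, close in coding sequence to *Acta2*, averaged 24113 normalized counts in choroid and 30.7 in retina, and how reads were divided between these paralogs was not examined.

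**Figure D5:**
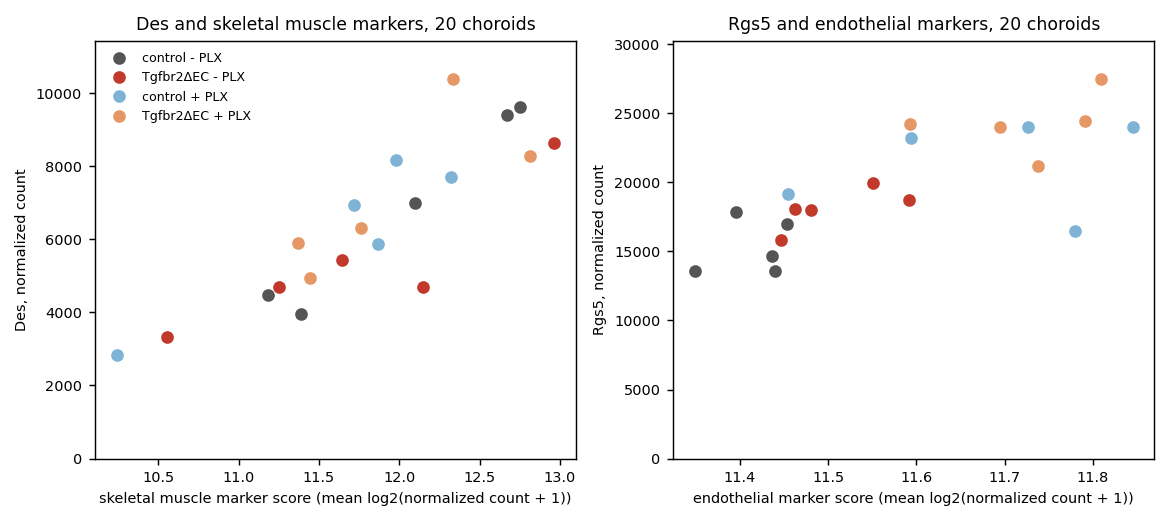
Normalized counts of *Des* against the skeletal muscle marker score (left) and of *Rgs5* against the endothelial marker score (right) in 20 choroids, with a point per mouse coloured by group. *Des* rises with the score (r = 0.917 after centring on the group means). For *Rgs5*, 8 of the 10 choroids with PLX lie above every choroid without it, with r = 0.242 with the endothelial score after centring. The points are not centred, and centring takes out the difference with PLX, 0.45 for *Rgs5* and 0.24 for the score (log2).

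Within groups, 1 of the 45 pairs of the 10 genes correlated in choroid at an adjusted p at or under 0.05 (permutation test of r). Of the 45 pairs, 36 had a positive correlation over the 20 choroids after centring, with a median r of 0.287. The share of positive pairs among other genes was not computed. *Abcc9* and *Notch3* were the closest pair, with r = 0.747 (permutation p = 0.00055) and rho = 0.765 (p = 0.00019), adjusted over 90 pairs in 2 tissues to 0.0495 and 0.0171, and r = 0.635 without the 2 choroids farthest from the median. *Rgs5* correlated with *Abcc9* at r = 0.727 and rho = 0.684 (permutation p = 0.00256 and 0.00393, adjusted 0.0835 and 0.118), and with *Pdgfrb* at r = 0.612 and rho = 0.702 (p = 0.00519 and 0.00265, adjusted 0.0934 and 0.118). *Acta2* and *Tagln* had r = 0.679 and rho = 0.608 (permutation p = 0.00371 and 0.0137, adjusted 0.0835 and 0.177). The 2 channel subunits *Kcnj8* and *Abcc9* had r = 0.038 and rho = 0.316 (permutation p = 0.903 and 0.237, adjusted 0.961 and 0.612). In retina, 32 of 45 pairs were positive, the median r was 0.207, and 0 pairs were at an adjusted p at or under 0.05.

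The genes most like *Rgs5* over the 20 choroids, without centring and among the 17597 that averaged 10 normalized counts or more, were *Mir100hg* (Pearson r = 0.921), *Arhgap20* (0.918), *Flt1* (0.908), *Sptbn1* (0.903) and *Kirrel1* (0.898). Those most like *Myh11* were *Nrip2* (0.907), *Cyp2f2* (0.882), *P2rx1* (0.878), *Or51e1* (0.859) and *Myo6* (0.859). Of these, *Flt1* encodes a VEGF receptor of endothelial cells, and *P2rx1* an ATP-gated channel of smooth muscle. In retina, where neither gene differed with the diet by the test, the likeness was weaker: among 17180 genes the closest to *Rgs5* were *St13* (0.756), *Canx* (0.734), *She* (0.707), *Cd44* (0.703) and *Rala* (0.692), and the closest to *Myh11* were *Smtnl2* (0.747), *Snx32* (0.697), ENSMUSG00000087054 (0.695), *Rps23-ps1* (0.695) and *Smg5* (0.694). These values describe the 20 libraries of a tissue, which share the diet as a source of variation. They are the highest of all genes compared and were not tested against chance.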

How the data were processed

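RNA of 20 choroids and 20 retinas was sequenced as single reads from stranded libraries of polyadenylated RNA. The authors quantified the reads with salmon 1.10.1 on GRCm39 with GENCODE annotation, summed them per gene through tximport and scaled the libraries in DESeq2 1.36.0, and the deposited signal per gene is their normalized count. The methods describe separate analyses of the tissues, but the deposited values were scaled for both tissues together: each library's size factor, recomputed on 15800 genes that no library lacks, came to 1.0082 in all 40 together, against 0.983 to 1.03 within choroid and 0.992 to 1.04 within retina. Whole reads were not recovered: 45.4% to 71.6% of low values lay within 0.1 of a whole read, and the steps gave an approximate depth of 20987041 to 30524010 reads per library. Identifiers were matched to GENCODE release 39 (53700 of 54307 genes), which is later than the release the authors used.

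Differences were tested with limma (version 3.58.1, R 4.3.3, trended variance) after adding 1 to each normalized count and taking log2. Genes averaging 1 or more were kept, the 4 groups of a tissue (all 40 libraries for tissue) shared one fit without covariates, and p was adjusted by Benjamini-Hochberg over all genes tested and called at 0.05 or less. On this scale the change of low genes is understated. For single genes, exact two-sided permutation tests were run. Correlations used 100000 resamples within groups (Python 3.11.15, scipy 1.17.1). The fits were first tested on simulated data. Sex and neuronal percentage, which the authors had as covariates, entered as scores computed from the data, in alternatives alone.

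The labels do not say more on the mice, so p-values measure the spread between these samples. The 10 genes and the gene lists were chosen with earlier results of these data known. All 10 genes are named, with at most 3 called genes of lowest p in each direction per list and comparison and the 5 genes most like *Rgs5* and *Myh11* in each tissue. *Pdgfb*, *Myocd*, *Acta1*, *Kcnj11* and *Abcc8* were named outside this rule, after their values had been seen. The alternatives tried are given below.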

Additional observations from a re-analysis of the deposited data

Results flagged for a closer look

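Among 80 groups of 5 mice (10 genes, 8 groups of tissue, genotype and diet), 2 held a mouse far from the other 4 by Dixon's ratio (gap to the nearest mouse over the range of the group, critical value 0.71), where chance flags about 1 in 20 groups. *Tagln* in the retina of mouse 9 (Tgfbr2ΔEC – PLX) read 144 normalized counts against 48.7 to 74.9 in the other 4, with a ratio of 0.727. *Notch3* in the retina of mouse 20 (Tgfbr2ΔEC + PLX) read 236 normalized counts against 131 to 141 in the other 4, with a ratio of 0.901.

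The effect of PLX differed between the tissues for 2 of the 10 genes by the interaction term in limma with adjustment over all genes. The effect in choroid minus that in retina was 0.56 on the log2 scale for *Rgs5* (adjusted p = 0.00691) and 0.35 for *Pdgfrb* (adjusted p = 0.0333). For *Rgs5* the effect was 0.45 in choroid and -0.11 in retina, and for *Pdgfrb* 0.18 and -0.16.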

How the results depend on the processing

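The numbers of the 10 genes called were recomputed under 14 other settings and without each mouse in turn. The number was the same or within 1.5 times the reported one in 164 of 168 counts from the other settings and in 296 of 320 fits without 1 mouse. The 24 that moved were 10 of 20 fits for the tissue by PLX interaction, 8 for PLX in Tgfbr2ΔEC choroids, 5 for PLX in control choroids and 1 for PLX in choroid over both genotypes. The tissue difference called 10 of 10 genes in every setting, and genotype 0 of 10 in every setting in both tissues. The sources do not state that a choroid and a retina with one number share an animal. Their deviations from the group means correlated over 18160 genes with a median r of 0.126 (-0.158 to 0.289, above 0.1 for 12 of 20), 14 of 20 choroids were closest to the retina of their own number among the 5 of the group, and the score of sex-linked genes had the same sign in both tissues for 20 of 20 numbers, which is a hint from the data. With the number as a replicate block, tissue called 10 genes and the tissue by PLX interaction 2 (*Rgs5* adjusted p = 0.0282, *Pdgfrb* 0.0434), as without it.

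For PLX in controls, a fit of only the 10 choroids compared called 0 genes (*Rgs5* adjusted p = 0.108, *Myh11* 0.0944), and leaving out single mice gave 1 (for example without mouse 1) to 2. For PLX in Tgfbr2ΔEC choroids, 0 were called among all genes above 0 (*Rgs5* adjusted p = 0.0589) and after adding the neural retina score to the fit (0.129), 2 in a fit of only the 10 choroids compared, and 0 (for example without mouse 6) to 1 without single mice. Over both genotypes, leaving out single mice gave 2 to 4 genes in choroid (4 without mouse 12) and 1 (for example without mouse 1) to 3 for the tissue by PLX interaction. *Pdgfrb* was called with PLX in choroid at a minimum mean of 10 (adjusted p = 0.039), with size factors recomputed within the tissue (0.036) and without mouse 4 (0.0225), 9, 12 or 13. The reasons were not tested, apart from the number of genes tested or mice fitted that each setting changes.

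Some log2 differences that were not called changed sign. For PLX in choroid, *Tagln* was 0.11 with the neural retina score and -0.0914 to 0.0397 without single mice (above 0 in 7 of 20 fits). For PLX in retina, *Abcc9* was 0.0566 with the neural retina score and -0.1389 to 0.0296 without single mice (above 0 without mouse 11). For genotype in choroid, *Acta2* was -0.0103 with the sex score, -0.0154 with the neural retina score and -0.0005 to 0.1186 without single mice (below 0 without mouse 3), *Tagln* was -0.0156 with the neural retina score, *Des* was -0.1902 to 0.0193 without single mice (above 0 in 5 fits) and *Notch3* -0.0135 to 0.1368 (below 0 without mouse 1). For genotype in retina, *Rgs5* was -0.0262 to 0.0644 without single mice (below 0 in 5 fits), *Myh11* -0.0092 to 0.1042 (below 0 in 2 fits) and *Des* -0.084 with the sex score. In retina, *Des* ranged from 9.31 to 44.9 normalized counts, where 3 reads correspond to 2.23 to 3.37.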
